A study of Mus musculus with 4 samples.

Results

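Fc receptors bind the constant part of antibodies, and the Fc receptor-like genes share their immunoglobulin-type domains. The 10 mouse genes described here are Fcrla, Fcrlb, Fcrl1, Fcrl5, Fcer2a, Fcgr2b, Fcmr, Fcer1g, Fcgr3 and Fcgrt, out of 54752 genes counted in each library. They were chosen from these same measurements, because the Fcrla count was much higher and the Fcer2a count lower in the Mek1/2-tKO libraries. The contrast between the genotypes is therefore given for these 10 genes as a description, with no p-value. The libraries came from naive CD4+ T cells of mouse spleen, which the authors isolated with a naive CD4+ T-cell selection kit. The cells were cultured to day 3 under conditions favouring T follicular helper (Tfh) cells, the CD4+ subset that helps B cells. Both genotypes received plate-bound anti-CD3, anti-CD28, interleukin-6 and blocking antibodies to interleukin-2, interferon-γ, interleukin-4 and TGF-β, and viable cells were sorted again before RNA extraction.

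WT denotes the wild-type controls, with 2 libraries. Mek1/2-tKO, also with 2 libraries, denotes mice with floxed Map2k1 and Map2k2 (fl/fl at both genes, made in C57BL/6) and a Cd4-Cre transgene, in which the Cd4 promoter drives Cre in T cells from the thymus onwards, so that B cells and myeloid cells of the same mice keep both MEK genes. The age of the Mek1/2-tKO mice and whether animals were pooled are not given in the sources used here. The WT libraries held 18858860 and 18807774 assigned counts, and the Mek1/2-tKO libraries held 16330802 and 18931090. Map2k1, which encodes MEK1, measured 182 and 187 CPM (the count scaled to a common library size) in WT and 98.0 and 105 CPM in Mek1/2-tKO. It was 0.86 ± 0.08 lower on the log2 scale (estimate ± SE, adjusted p = 1.29e-06, edgeR quasi-likelihood test, Benjamini-Hochberg), whereas Map2k2 (MEK2) differed by 0.15, with an adjusted p of 0.126 in the same test. Whole-gene counts do not separate the floxed exons from the rest of either transcript, so the Map2k2 value does not check its deletion.

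The labelled cell type is CD4+ T cell, and its defining marker Cd4 measured 297 and 289 CPM in WT but 18.8 and 25.1 CPM in Mek1/2-tKO, a log2 fold change of -3.73 ± 0.12 (edgeR, adjusted p = 2.43e-11). The alpha-beta T-cell markers were not uniform. Of 10 tested, Cd4 included, 6 were lower and 0 higher, with Cd5, Cd6, Cd28, Cd3e and Trac also below WT, while Trbc2, the receptor beta constant region, differed by -0.03. Transcripts of B-lineage genes were also present. The summed level of 20 B-lineage markers was 1612 and 1592 CPM in WT and 7933 and 7945 CPM in Mek1/2-tKO. Because the libraries are bulk RNA, fewer cells of a type and less RNA per cell cannot be told apart.

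Most members of the family are carried by cells other than CD4+ T cells. Classical Fc receptors on B cells and myeloid cells read out antibody bound to antigen, either activating the cell through an adaptor chain that carries a tyrosine activation motif, or braking it through an inhibitory motif in the receptor tail. B cells carry the inhibitory receptor FcγRIIB and CD23, the low-affinity IgE receptor encoded by Fcer2a, besides several Fc receptor-like proteins. A neonatal Fc receptor, FcRn, recycles IgG inside the cell and is built like a class I MHC molecule.

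The sequences just before the start sites of 3 members are printed, those of Fcrla for its largest difference, Fcer2a for its negative one and Fcrl1 for the PU.1 box next to its start. They are RefSeq sequences of GRCm38.p6, 250 bases ending at the base before the annotated start, written 5′ to 3′ on the gene's strand. Capitals mark every match to the ETS core GGAA (TTCC on the other strand), the PU.1 box GAGGAAGT or the EBF1 site CCCNNGGG, where N is any base. The Fcrla stretch lies at chr1:170927584-170927833 on the minus strand, the Fcrl1 stretch at chr3:87376137-87376386 on the plus strand, and the Fcer2a stretch, before the most upstream of its 3 listed starts, at chr8:3694175-3694424 on the minus strand.
Fcrla: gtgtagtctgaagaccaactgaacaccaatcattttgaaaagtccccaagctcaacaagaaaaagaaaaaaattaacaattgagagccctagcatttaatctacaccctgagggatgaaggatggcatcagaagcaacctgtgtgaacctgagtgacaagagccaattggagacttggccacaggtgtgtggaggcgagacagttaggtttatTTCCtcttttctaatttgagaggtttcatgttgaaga
Fcrl1: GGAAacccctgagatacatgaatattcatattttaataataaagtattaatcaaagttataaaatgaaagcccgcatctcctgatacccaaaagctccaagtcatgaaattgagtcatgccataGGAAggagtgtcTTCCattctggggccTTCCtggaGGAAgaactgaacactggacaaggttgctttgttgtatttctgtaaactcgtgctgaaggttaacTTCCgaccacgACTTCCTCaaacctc
Fcer2a: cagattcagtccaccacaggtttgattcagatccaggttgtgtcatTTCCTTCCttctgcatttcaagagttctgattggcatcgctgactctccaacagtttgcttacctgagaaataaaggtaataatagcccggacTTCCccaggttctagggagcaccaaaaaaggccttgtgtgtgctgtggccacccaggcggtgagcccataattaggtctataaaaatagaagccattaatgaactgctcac

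All 10 genes were found among the RefSeq promoters, with 13 start sites between them. Every motif was searched on both strands of the 250 bases, and the GGAA core also lies inside the PU.1 box. The octamer ATGCAAAT, bound by OCT1 and OCT2 in B cells, was in 0 of the 13 stretches and in 1.6% of all 32851 promoters. The PU.1 box was in 2 of 13, those of Fcrl1 and Fcrlb, against 2.44% of all promoters. In Fcrl1 it lies on the other strand and begins 15 bases before the start, and in Fcrlb it begins 129 bases before. The EBF1 letters were in 3 of 13, namely both starts of Fcgr3 and the single one of Fcgrt, against 11.8%. The windows of the Fcgr3 starts overlap and hold the same site, which is thus counted for each. The ETS core was in 13 of 13, against 93.4%. These matches describe letters in the windows and say nothing of binding.

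**Figure D1:**
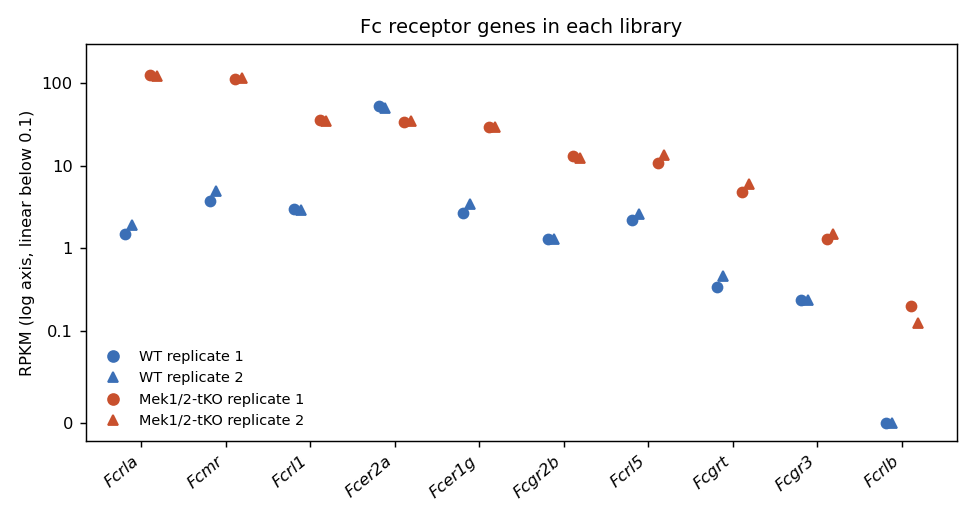
RPKM of the 10 Fc receptor genes (log axis, linear below 0.1), 1 point per library, for WT and Mek1/2-tKO in order of the Mek1/2-tKO mean. The Fcer2a points are the only ones with WT above Mek1/2-tKO, and Fcrla and Fcmr stand highest in Mek1/2-tKO.

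Of the 10 genes, 9 had counts high enough to be tested. A gene was called where its fold change reached 1.5 in either direction with an adjusted p below 0.05. By this rule 8 of the 9 were higher in Mek1/2-tKO and 1 was lower. Across all 14330 tested genes 19.3% were called higher and 16.4% lower, and since the members were selected on this contrast nothing is read from their counts. In all 10 genes the WT and Mek1/2-tKO libraries did not overlap, Fcrlb included, which had at most 4 counts in a library. The share of all genes without overlap was not computed, so nothing is read from this either. The median log2 fold change of the 9 was 3.28, beside 0.02 over all tested genes.

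Fcrla encodes an Fc receptor-like protein that stays inside B cells and binds immunoglobulin there. The gene lies on chromosome 1 (GRCm38, 170917576 to 170927583, minus strand). It drew 51 and 65 counts in WT and 3377 and 3990 in Mek1/2-tKO, or 2.62 and 3.37 CPM against 218 and 212 CPM. The 2 libraries of each genotype lay close together, and the genotypes were 71.8-fold apart, a log2 fold change of 6.17 ± 0.13. Fcrlb, the related intracellular gene next to it (chromosome 1, 170907273 to 170912941, minus strand), had 0 counts in both WT libraries and 4 and 3 in Mek1/2-tKO. These counts are at the detection floor of 3 counts (0.154 to 0.194 CPM), so no fold change is given and Fcrlb was not tested.

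Fcrl1 and Fcrl5 are surface receptors of B cells on chromosome 3, 32.8 kb apart. Fcrl1, which enhances B-cell receptor signalling, measured 10.7 and 10.3 CPM in WT and 128 and 124 CPM in Mek1/2-tKO. Its log2 fold change was 3.58 ± 0.11, with replicates nearly equal in each genotype. Fcrl5, a receptor of marginal zone and B1 cells with both activating and inhibitory motifs, measured 7.65 and 8.97 CPM in WT and 38.0 and 47.2 CPM in Mek1/2-tKO. At 2.36 ± 0.16 it had the smallest positive difference of the tested members, and its Mek1/2-tKO libraries were farther apart than those of Fcrl1.

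Fcer2a encodes CD23, the low-affinity IgE receptor of follicular B cells (chromosome 8, 3681737 to 3694175, minus strand). It drew 3199 and 3028 counts in WT and 1643 and 2027 in Mek1/2-tKO. The levels were 164 and 157 CPM in WT and 106 and 108 CPM in Mek1/2-tKO. Both Mek1/2-tKO libraries were below both WT libraries, at a log2 fold change of -0.59 ± 0.08 and a fold of 0.666, which sits at the 1.5-fold threshold. The call was lost in 4 of 6 alternatives with all libraries, and also without WT replicate 1 or Mek1/2-tKO replicate 1.

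Fcmr encodes the receptor for IgM, found on B cells (chromosome 1, 130865669 to 130880791, plus strand). It measured 6.57 and 8.56 CPM in WT and 194 and 200 CPM in Mek1/2-tKO, from 128, 165, 2998 and 3758 counts. The genotypes were 26.0-fold apart, a log2 fold change of 4.70 ± 0.12, the second largest of the members after Fcrla.

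Fcgr2b, the inhibitory IgG receptor, lies 31.0 kb from Fcrla (chromosome 1, 170958617 to 170976547, minus strand). It measured 7.60 and 7.57 CPM in WT and 76.9 and 70.9 CPM in Mek1/2-tKO, a log2 fold change of 3.28 ± 0.13. Fcgr3, an activating IgG receptor 124 kb from Fcrla, was far scarcer, with 8 counts in each WT library and 35 and 49 in Mek1/2-tKO, a log2 fold change of 2.54 ± 0.55. The parts of these receptors outside the cell are near-identical copies of each other, so reads assigned to the scarcer Fcgr3 are less certain. Of the exon bases of Fcgr2b, 2.68% are shared with Gm38204 on the other strand, and the other 9 members share none.

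Fcer1g encodes the common γ chain, the adaptor that carries the signal of FcεRI, FcγRIII and FcγRIV in mast cells, NK cells and myeloid cells. It measured 2.36 and 3.01 CPM in WT and 25.8 and 25.7 CPM in Mek1/2-tKO, a log2 fold change of 3.26 ± 0.20. Per length it exceeded Fcgr3 in every library, with RPKM ratios of 11.4 and 14.4 in WT and 22.7 and 19.6 in Mek1/2-tKO. Fcgrt encodes the heavy chain of FcRn (chromosome 7, 45092990 to 45103851, minus strand). It drew 14 and 19 counts in WT and 156 and 235 in Mek1/2-tKO, a log2 fold change of 3.72 ± 0.31.

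Levels of different genes are compared as RPKM, the CPM divided by the exon length in kilobases. In WT the order was Fcer2a (51.9 ± 1.63 RPKM, mean ± SD, n = 2), Fcmr (4.36 ± 0.81), Fcer1g (3.07 ± 0.524), Fcrl1 (2.96 ± 0.0803), Fcrl5, Fcrla (1.72 ± 0.306), Fcgr2b, Fcgrt, Fcgr3 and Fcrlb. The ranges of Fcer1g and Fcrl1 overlapped, so that pair has no order, while no other neighbouring pair overlapped. In Mek1/2-tKO the order was Fcrla (123 ± 2.29 RPKM), Fcmr (113 ± 2.64), Fcrl1 (35.5 ± 0.758), Fcer2a (34.6 ± 0.416), Fcer1g, Fcgr2b, Fcrl5, Fcgrt, Fcgr3 and Fcrlb. Here the ranges of Fcgr2b and Fcrl5 overlapped, and those of Fcrl1 and Fcer2a met at 34.9 RPKM. Without division by length 5 genes changed rank in WT and 3 in Mek1/2-tKO.

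The make-up of the family's transcripts differed accordingly. Fcer2a made up 77.9% and 74.1% of the summed RPKM of the 10 genes in WT and 9.35% and 9.44% in Mek1/2-tKO. Fcrla went from 2.2% and 2.82% to 34.1% and 32.9%, and Fcmr from 5.55% and 7.19% to 30.4% and 31.2%. The sum itself was 68.2 and 68.6 RPKM in WT and 367 and 370 RPKM in Mek1/2-tKO. Within a library, the RPKM ratio of Fcrla to Fcer2a was 0.0282 and 0.038 in WT and 3.64 and 3.49 in Mek1/2-tKO.

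**Figure D2:**
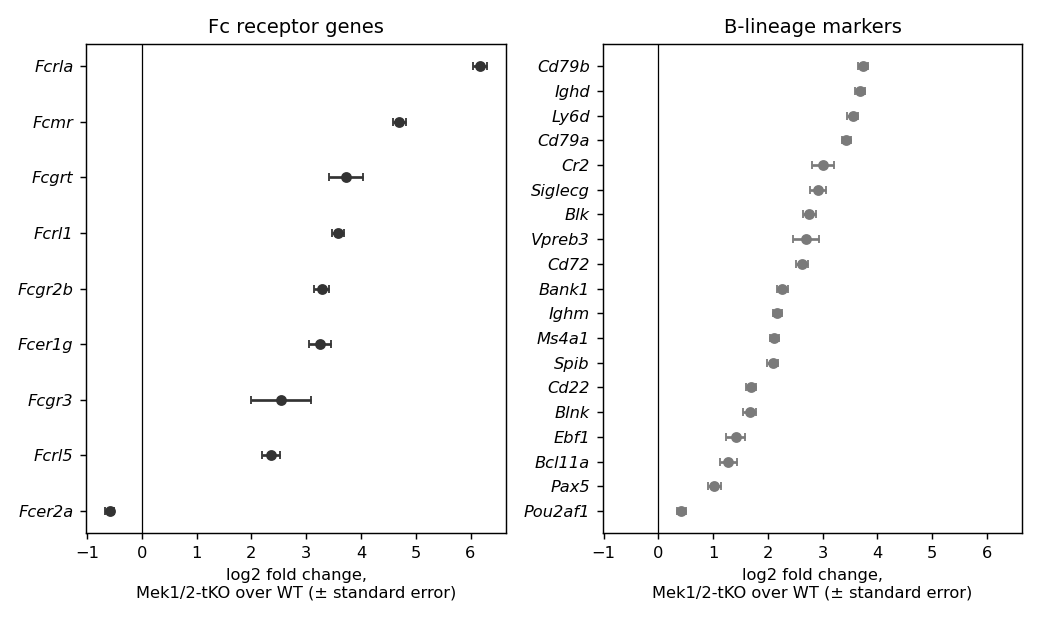
Log2 fold change of Mek1/2-tKO over WT with its standard error for the 9 tested Fc receptor genes and for 19 of the 20 B-lineage markers, Pou2af1, which was not called, included. Fcrla, at 6.17, and Fcmr, at 4.70, lie beyond the highest B-lineage marker, Cd79b at 3.73, and Fcer2a is the only gene below 0.

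B-lineage genes moved in the same direction as most of the members, so their values are set beside them. Of the 20 markers tested 19 were higher in Mek1/2-tKO and 0 lower, at a median log2 fold change of 2.22. Ighm, the IgM heavy chain, had the highest CPM, and the highest difference was that of Cd79b, a B-cell receptor signalling chain, at 3.73. Cd79b measured 93.4 and 89.7 CPM in WT and 1274 and 1158 CPM in Mek1/2-tKO, with its partner Cd79a at 3.43. Pou2af1, a B-cell coactivator, was not called at 0.42, and no marker of this list was at 0 in any group. The part of B-lineage transcripts in the differences of the Fc receptor genes was not tested.

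To show each member against B-lineage genes of the same library, the mean log2 RPKM of 6 of them, among them Ms4a1, Cd79a, Cd79b, Cd22 and Pax5, was subtracted from the member's log2 RPKM, with 0.1 added to each RPKM. The mean of the 6 genes themselves was 4.59 in both WT libraries and 6.83 and 6.89 in Mek1/2-tKO. Fcrla stood at -3.92 and -3.56 on this scale in WT and at 0.14 and 0.04 in Mek1/2-tKO, a mean difference of 3.83. Fcmr stood at -2.64 and -2.26 in WT and at -0.03 in both Mek1/2-tKO libraries, a difference of 2.42. The relative levels of Fcrl1, Fcgrt, Fcer1g and Fcgr2b differed by 1.27, 1.17, 0.97 and 0.92. The 0.1 RPKM added lowers the Fcgrt value, since Fcgrt was at 0.342 and 0.469 RPKM in WT. Its order against Fcrl1 is therefore not firm.

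Against the mean of the 6 genes, Fcrl5 and Fcgr3 differed little in relative level, by 0.04 and -0.12, and neither sign was firm. The Fcrl5 value was -0.08 without WT replicate 1 and -0.09 without Mek1/2-tKO replicate 2. The 0.1 RPKM added lowers the Fcgr3 value, since Fcgr3 was at 0.236 and 0.239 RPKM in WT, and its log2 fold change of 2.54 was above the 2.27 by which the mean of the 6 genes differed. Fcer2a went the other way, from 1.14 and 1.08 in WT to -1.72 and -1.76 in Mek1/2-tKO, a difference of -2.85. Against the whole list of 20 markers in place of the 6, the differences of the tested members were the same to within 0.01. As plain RPKM ratios, Fcer2a to Cd79a was 1.36 and 1.25 in WT and 0.0794 and 0.0828 in Mek1/2-tKO. Fcer2a to Ms4a1, which encodes CD20, was 2.98 and 2.96 in WT and 0.435 and 0.481 in Mek1/2-tKO. Fcrla to Cd79a was 0.0385 and 0.0477 in WT and 0.289 in both Mek1/2-tKO libraries. The result for some members depended on the B-lineage gene taken. Against Cd79a, one of the markers with the highest differences, Fcgr2b was 0.0336 and 0.0323 in WT and 0.0307 and 0.0291 in Mek1/2-tKO. Fcrl1 to Cd79a was 0.0773 and 0.0716 in WT and 0.0833 and 0.0829 in Mek1/2-tKO. Fcrl5 to Cd79a was lower in Mek1/2-tKO, at 0.0252 and 0.0322 against 0.0564 and 0.0637 in WT.

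**Figure D3:**
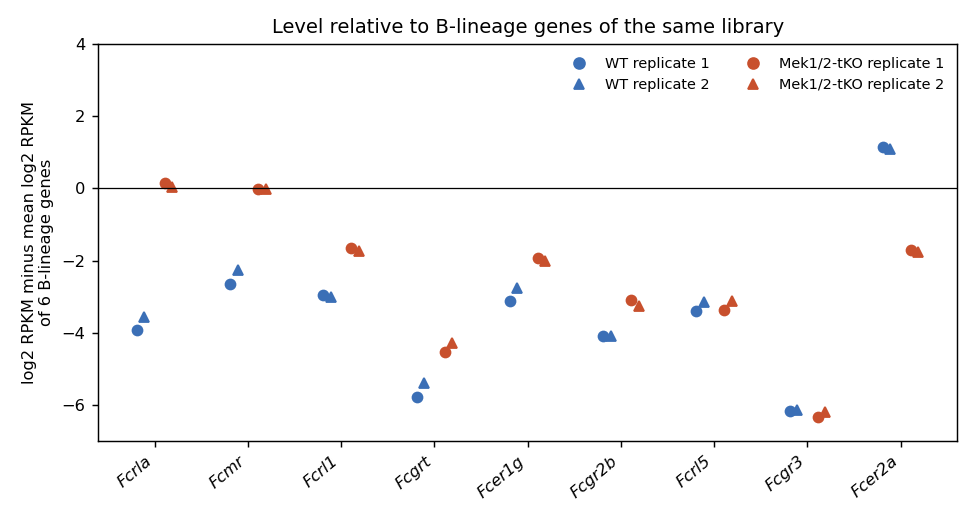
Log2 RPKM of each tested Fc receptor gene minus the mean log2 RPKM of 6 B-lineage genes of the same library, 1 point per library. Fcrla and Fcmr lie near 0 in Mek1/2-tKO and well below it in WT, whereas Fcer2a lies above 0 in WT and below it in Mek1/2-tKO.

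The genes for the ligands differed by class. Of 12 immunoglobulin constant genes, 10 were higher in Mek1/2-tKO and 2 lower, at a median log2 fold change of 2.44. Ighm, whose product binds the Fcmr receptor, measured 696 and 670 CPM in WT and 3068 and 3095 CPM in Mek1/2-tKO (a log2 fold change of 2.17, edgeR, adjusted p = 7.81e-11). Igkc, the kappa light chain, and Ighd, the IgD heavy chain, differed by 2.70 and 3.68, and Iglc2 had the largest rise at 4.15.

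Ighe, the heavy chain of the IgE that CD23 binds, had 55 and 70 counts in WT and 0 in both Mek1/2-tKO libraries. Against the floor of 3 counts per library it was at least 18.2-fold lower, if each count is a separate fragment. Ighg1, an IgG subclass that like IgE depends on interleukin-4, measured 44.0 and 46.4 CPM in WT and 13.2 and 18.1 CPM in Mek1/2-tKO, a log2 fold change of -1.52 ± 0.15 (edgeR, adjusted p = 1.53e-06). The remaining IgG genes went the other way, with Ighg2b at 1.01, Ighg2c at 1.04 and Ighg3 at 1.47. Ighg2b and Ighg2c, and likewise the Iglc genes, resemble each other closely, and reads shared between them were not measured.

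**Figure D4:**
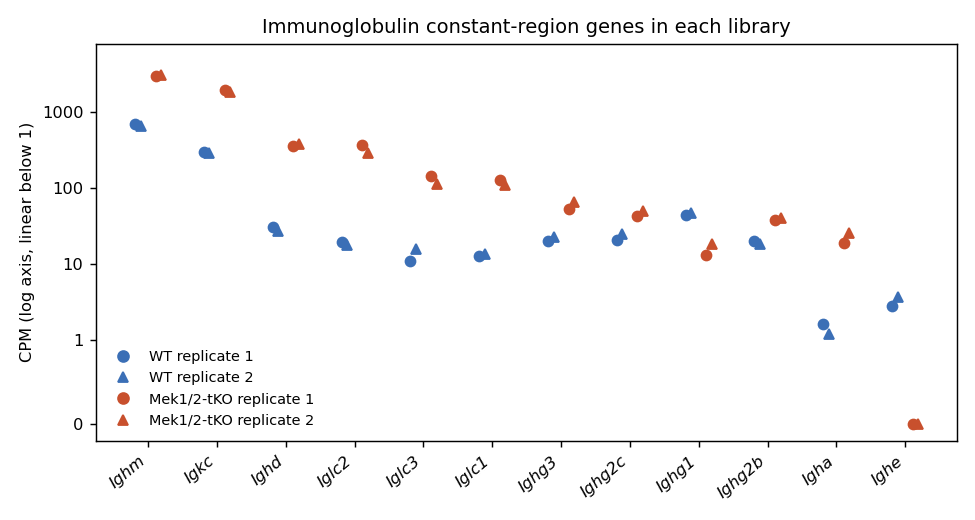
CPM of the 12 immunoglobulin constant-region genes (log axis, linear below 1), 1 point per library. Ighe and Ighg1 are the 2 genes whose WT points lie above the Mek1/2-tKO points, and Ighe is at 0 in Mek1/2-tKO.

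All but Trim21 of the other Fc receptor genes were scarce. A list of 10 held 4 tested genes, of which 3 were higher and 0 lower, at a median of 1.67. These calls rest on few counts, and 1 was left without WT replicate 1 or with at least 10 counts in every library, and 0 without Mek1/2-tKO replicate 2. Fcgr4, an activating IgG receptor of myeloid cells, had 4 and 10 counts in WT and 20 and 28 in Mek1/2-tKO (a log2 fold change of 1.93, edgeR, adjusted p = 0.0246). Ms4a2, the β chain of the high-affinity IgE receptor, had 0 counts in WT and 10 and 18 in Mek1/2-tKO, at least 5.18-fold higher against the floor. Pigr, which carries IgA and IgM across epithelia, differed by 1.41 (adjusted p = 0.0169, edgeR). Trim21, a cytosolic antibody receptor expressed in many cell types, had 572 and 516 counts in WT and 430 and 539 in Mek1/2-tKO, and differed by 0.01. Fcgr1, Fcer1a, Fcrl6, Fcrls and Fcamr had too few counts to be tested, with at most 12 counts in any library.

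Of 8 partner chains and processing enzymes, 4 were higher and 2 lower, at a median of 0.90. B2m, the light chain of FcRn and of class I MHC, measured 1078 and 1053 CPM in WT and 2800 and 2321 CPM in Mek1/2-tKO, a log2 fold change of 1.26 (edgeR, adjusted p = 8.32e-08). Tyrobp, an adaptor of NK and myeloid receptors, had the largest difference at 3.54 (adjusted p = 6.95e-08, edgeR). Cr2, which encodes the complement receptor CD21 of mature B cells, differed by 3.00, and the RPKM ratio of Fcer2a to Cr2 was 179 and 144 in WT and 13.8 and 12.9 in Mek1/2-tKO. Adam10, the protease that sheds CD23 from the cell surface, was lower at -0.69 (adjusted p = 1.78e-05, edgeR), as was the T-cell receptor chain Cd247, at -0.79.

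Genes that carry the signal of activating Fc receptors were split. Of 23 tested 8 were higher and 6 lower, at a median of 0.10. The kinases Lyn, Syk and Btk differed by 1.99, 1.43 and 2.00, and the adaptors Blnk and Lat2, the latter with the largest rise, by 1.67 and 2.55. Plcg2 was higher too. Gab2 was called higher near the threshold (edgeR, adjusted p = 0.045), from 10 and 8 counts in WT and 32 and 17 in Mek1/2-tKO. Plcg1, the phospholipase of T-cell receptor signalling, had the largest fall at -1.83, and Fyn, Lcp2, Vav3, Sos1 and Pik3cg were lower as well. Lat had the highest CPM of the list in both genotypes, followed by Lcp2 in WT and by Pik3cd in Mek1/2-tKO. Lat and Pik3cd were not called, at -0.55 and -0.10.

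Of 10 genes of inhibitory signalling, 2 were higher and 3 lower, at a median of 0.05. Dok3, an adaptor that restrains B-cell and myeloid receptors, had a log2 fold change of 4.70 (edgeR, adjusted p = 7.81e-11), the same size as that of Fcmr. Dok1 was the other higher gene, at 0.81, and Inppl1, Ptpn11 and Cblb were lower at -0.78, -0.85 and -1.48. Inpp5d, the phosphatase SHIP1 through which FcγRIIB acts, and Ptpn6, the phosphatase SHP-1, were not called, at 0.11 and 0.28.

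CD23 on B cells is induced by interleukin-4 through STAT6 and also depends on NOTCH2 signalling. Of 12 genes of these routes 2 were higher and 3 lower, at a median log2 fold change of -0.43. Jak3 had the largest fall at -1.18 (edgeR, adjusted p = 2.11e-07), and Notch2 and its coactivator Maml1 were lower at -0.66 and -0.68. Il4ra and Stat6 were not called, at -0.47 and -0.53, and Il4 was scarce at a log2 fold change of -0.92 (edgeR, adjusted p = 0.0665). The higher genes were Cd40, at 0.88, and Dtx1, a NOTCH target, at 1.87. With scaling by library size alone, 5 genes in place of 3 were lower.

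B-cell subset genes were set beside the members in the same way. Of 10 follicular and marginal-zone genes 8 were higher and 0 lower, at a median of 2.43, with Cd55 at 3.97, Plac8 at 3.65 and Cd1d1 at 3.60. Their summed level was 276 and 277 CPM in WT and 1775 and 1610 CPM in Mek1/2-tKO. Of 6 tested germinal-centre genes, only Bcl6 was higher, at 1.85, and S1pr2 lower, at -0.78. Bcl6 is also a transcription factor of Tfh cells, and the paper lists it as such. Gcsam was at 0 in every library, Rgs13 had at most 0.103 CPM, and the list summed to 28.0 CPM in each WT library and 43.6 and 45.8 CPM in Mek1/2-tKO. Of 7 tested plasma-cell genes 3 were higher and 1 lower, led by Jchain at 4.54. Irf4, which T cells also express, was the lower one at -1.51, and Xbp1 was not called at 0.37.

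Markers of the other cells that carry Fcer1g and Fcgr3 also differed. All 11 NK-cell markers were higher, at a median of 2.82, and their sum was 1516 and 1485 CPM in WT and 5841 and 5226 CPM in Mek1/2-tKO. Gzmb made up most of it, and activated T cells express Gzmb as well. Klra8 had the largest difference at 4.74, and Ncr1, which is more restricted to NK cells, measured 0.77 and 0.83 CPM in WT and 11.5 and 9.85 CPM in Mek1/2-tKO. All 6 tested gamma-delta T-cell markers were higher too, at a median of 4.70, with Trdc at 1.64 and 1.56 CPM in WT and 57.9 and 53.6 CPM in Mek1/2-tKO. Their sum was 8.11 and 4.77 CPM in WT and 205 and 188 CPM in Mek1/2-tKO, and Tcrg-V6 was at 0 throughout.

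Myeloid markers summed to 43.2 and 42.5 CPM in WT and 341 and 272 CPM in Mek1/2-tKO. Most of this was Ly6c2, which lymphocytes also express, at 39.0 and 37.9 CPM in WT and 313 and 250 CPM in Mek1/2-tKO. Of the 13 markers 7 were tested and all 7 were higher, at a median of 3.55, or 2.87 with Adgre1 and S100a8, at 0 in WT, set at their lower bounds of 28.0-fold and 5.94-fold. In Mek1/2-tKO Lyz2 measured 10.2 and 6.23 CPM, Adgre1, the F4/80 antigen of macrophages, 4.26 and 4.42 CPM, and Cd68 4.13 and 5.49 CPM. Cd14 measured 2.97 and 1.60 CPM and Csf1r 2.33 and 0.533 CPM. Itgam reached at most 0.426 CPM and C1qa at most 0.258 CPM in any library. Of 6 mast-cell and basophil markers 5 were higher, with Mcpt8 largest at 5.28, and Hdc was lower at -1.94. Their sum was 7.85 and 9.13 CPM in WT and 19.2 and 20.3 CPM in Mek1/2-tKO. The part of NK, gamma-delta, myeloid or mast cells in the Fcer1g and Fcgr3 values was not tested.

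**Figure D5:**
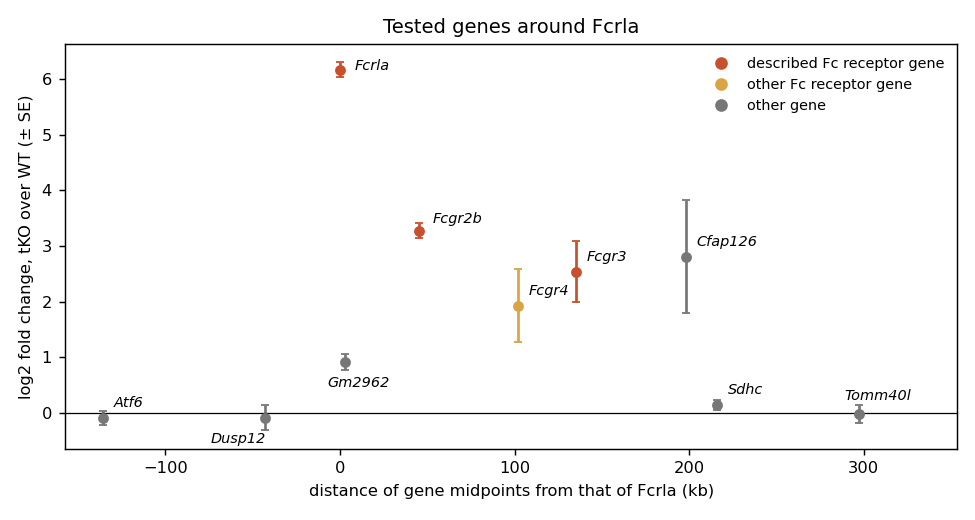
Log2 fold change of Mek1/2-tKO over WT with its standard error for the tested genes within 300 kb of Fcrla, by distance between gene midpoints. Fcrla, Fcgr2b, Fcgr4 and Fcgr3 lie at 1.93 or above, as does the scarce Cfap126 at 2.81. Gm2962 lies at 0.92, and Atf6, Dusp12, Sdhc and Tomm40l lie within 0.15 of 0.

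Fcrla, Fcrlb, Fcgr2b, Fcgr4 and Fcgr3 lie in 1 cluster on chromosome 1. Fcrlb is 4.63 kb and Fcgr4 91.3 kb from Fcrla. Of 24 other genes within 300 kb of Fcrla 7 were tested, and 3 of these were higher and 0 lower. The higher ones were Fcgr4, Gm2962, which overlaps the Fcrla span and differed by 0.92 (edgeR, adjusted p = 6.71e-05), and Cfap126, at 2.81 (edgeR, adjusted p = 0.0304). Cfap126 was scarce, with 0 and 4 counts in WT and 14 and 12 in Mek1/2-tKO. The flanking genes Atf6, Dusp12, Sdhc and Tomm40l were not called, at -0.09, -0.08, 0.15 and -0.02.

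The surroundings of the other members were mixed. Within 100 kb of Fcer1g 9 genes were tested, and 1 was higher, Ufc1 at 0.67. Around Fcer2a 5 genes were tested, none was lower and 2 were higher, Pet100 at 0.96 and Mcemp1 at 3.60. Mcemp1 was scarce, with 2 counts in each WT library and 31 and 13 in Mek1/2-tKO. Trappc5, the nearest of the 5, differed by 0.29. Around Fcmr 3 genes were tested. Pigr was higher and Il24, 1.28 kb from Fcmr, was lower at -3.31 (edgeR, adjusted p = 3.72e-06). Around Fcgrt 17 genes were tested, with 5 higher and 2 lower. Apart from the members themselves, Etv3 was the single tested gene near Fcrl5, at 0.81, and none was tested near Fcrl1.

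The genes with profiles most like those of 4 members were found among 9605 genes whose average log2 CPM reached 3, by the Euclidean distance of log2 CPM centred on each gene's mean over the 4 libraries. For Fcrla they were Xcl1, a chemokine of NK and CD8+ T cells, at a distance of 0.438, then Ifit3, Ccl9, Tcrg-C4 and Apoe, at 0.757 to 1.03. For Fcmr they were Cyp4f18, at 0.105, Spp1, Igkv4-86, Trdc and Apoe, up to 0.383. For Fcer1g they were Igkv9-120, at 0.0704, Tgfb3, H2-Eb1, Igkv16-104 and Cxcl16, up to 0.181. For Fcer2a they included Dhx33, at 0.0203, Nedd1, U2surp and Cpsf2, up to 0.0263. With 4 libraries these distances mainly follow the size of the difference between the genotypes.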

How the data were processed

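Per the labels and the methods, the authors trimmed paired-end reads of a stranded mRNA kit with Trimmomatic 0.36, mapped them to GRCm38 (the mapper is written STRA) and counted uniquely mapped reads per gene with featureCounts of Subread 1.5.1. They deposited raw counts with exon lengths, for 2 WT and 2 Mek1/2-tKO libraries of 16330802 to 18931090 counts. The annotation release and strand setting are not given in the sources used here. In each library more genes had 2 counts than 1 (1402 to 1474 against 646 to 789), as when the mates of a pair are counted separately. In that case 3 counts, taken here as the most that a count of 0 allows, stand for fewer fragments. All folds given as lower bounds against the floor would then be smaller. This floor covers counting error only.

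Genes passing filterByExpr (14330) were fitted in edgeR 4.0.16 under R 4.3.3, with TMM scaling and a robust quasi-likelihood model, and p-values were adjusted by Benjamini-Hochberg. Calls needed a 1.5-fold change and an adjusted p below 0.05. CPM used TMM-scaled library sizes, and RPKM divided them by exon length. On simulated Mek1/2-tKO and WT counts edgeR recovered 98.5% of 200 changed genes with 10 false calls among 14330, and DESeq2 97% with 1. Replicates differed by more than sampling noise if each count is a separate fragment (chi-square per gene 4.19 in WT, 10.9 in Mek1/2-tKO). Mates of a pair counted separately would raise these values. The labels do not say that the replicates came from separate mice or cultures. The p-values thus measure the spread between these samples, which may be technical. An exact permutation test of 2 against 2 cannot go below p = 0.333.

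The members and lists were chosen with earlier results of these data known. Genes named are the members, Map2k1 and Map2k2, the 3 most abundant tested genes and the largest called rise and fall of each list, markers at 0, genomic neighbours, and for 4 members the 5 nearest profiles. Other genes named come from the same lists, picked after their values were seen. Symbols matched 54723 of 54752 genes, and all 53861 identifiers shared with GENCODE M21 had its coordinates. Alternatives were DESeq2 1.42.0, its size factors, library size alone, 2 other count filters, a replicate block, a fold change of at least 2 and leaving out each library. Protein sequences were not analysed here, and a few genes under these rules are not reported here by name. Python 3.11.15 with pandas 2.3.3, numpy 2.4.6 and matplotlib 3.10.9 made the tables and figures.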

Additional observations from a re-analysis of the deposited data

How the results depend on the processing

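The numbers of all tested genes called moved by more than 1.5 times under 1 alternative, a fold change of at least 2, with 1725 higher and 1040 lower in place of 2768 and 2355. The DESeq2 test gave 2556 higher and 2186 lower, library size alone 2388 and 2848, no filter 2776 and 2450, at least 10 counts in every library 2363 and 2113, and DESeq2 size factors 2780 and 2347. Leaving out each library gave 2338 to 2791 higher and 2119 to 2627 lower. Libraries with the same replicate number did not deviate together (correlation -0.0242 across genes), and with the replicate number as a block 2652 genes were higher and 2300 lower. Fcer2a, at the 1.5-fold threshold, was called in 2 of the 6 alternatives with all libraries at the same thresholds, and not with DESeq2, its size factors, at least 10 counts or the replicate block. It was not called without WT replicate 1 or without Mek1/2-tKO replicate 1, and its log2 fold change stayed between -0.67 and -0.56. Since the members were chosen on this contrast, their calls across alternatives support nothing. The relative level of Fcrl5 reversed from 0.04 to -0.08 without WT replicate 1 and -0.09 without Mek1/2-tKO replicate 2, which left 1 library in a group, and ranged from -0.09 to 0.17. The number of other Fc receptor genes called higher was 3, but 1 with at least 10 counts, 1 without WT replicate 1 and 0 without Mek1/2-tKO replicate 2. With at least 10 counts in every library fewer genes were tested and 3 myeloid, 3 gamma-delta and 0 mast-cell and basophil markers were higher, and 1 immunoglobulin constant gene was lower. The germinal-centre list had 0 lower genes without WT replicate 2. Depth limits Fcrlb, too scarce to be tested, and Fcgr3, which had the widest standard error of the tested members.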
